A study of Mus musculus with 16 samples.

Results

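The genes that encode the constitutive subunits of the mouse proteasome were followed in mesenchymal stromal cells of muscle after an injection of CGRP. They were chosen by symbol: names made of Psma, Psmb, Psmc, Psmd or Psme and a number, leaving out the immunoproteasome genes Psmb8, Psmb9 and Psmb10. Of 52997 gene symbols, 40 met this rule, and 38 were analysed because at least 10 reads were counted in 4 or more libraries. Psma8, the alpha subunit gene known from testis, had 0 to 8 counts per library, and Psmb11, the beta subunit gene known from thymus, had 0 to 4, so both were left out. The 38 genes had 90 to 3559 counts in every library. They comprised 14 genes of the 20S core (7 of the alpha ring and 7 of the beta ring), 17 of the 19S particle (6 ATPases and 3 other subunits of the base, and 8 subunits of the lid), 3 chaperones of 19S assembly with a Psmd symbol and 4 activators.

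The proteasome degrades proteins that carry ubiquitin chains. Its 20S core is a barrel of stacked alpha and beta rings with the proteolytic sites inside, and the 19S particle on its ends binds the chains, removes them in the lid, and unfolds the substrate and opens the gate with the ATPases of the base. Activators such as PA28 replace the 19S particle and open the core without ubiquitin or ATP. When proteasome capacity falls short, the core and 19S genes are switched on together by the transcription factor Nfe2l1, and the alpha and beta subunits of PA28 are induced by interferon gamma with the immunoproteasome.

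The donors were C57BL/6 mice, 8 weeks old, with no genetic change named, and the tissue was hindlimb muscle. The mice had been injected intraperitoneally with CGRP (calcitonin gene-related peptide, a neuropeptide of sensory nerves) or with PBS (phosphate-buffered saline). Cells were isolated 4 h or 8 h later, with 4 biological replicates in each of the 4 groups, so 16 libraries of polyadenylated RNA from 1000 sorted cells each. No gate or dose is given in the sources used here, nor how many mice a replicate holds. The p-values thus set group differences against the variation between libraries, which need not be that between mice. In such bulk samples, fewer cells of a type and less RNA per cell cannot be told apart.

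Library totals were 6373713 to 10011920 counts. The 8 markers of mesenchymal stromal cells, all detected, summed to 137812 to 185098 CPM (counts scaled to a common effective library size) in every library. Their sum was lower after CGRP, at 144729 to 151472 CPM against 161290 to 185098 at 4 h and 137812 to 157575 against 161082 to 174210 at 8 h. The 8 macrophage markers summed to at most 23.5 CPM, and the 8 lymphocyte markers to at most 2.28 CPM, with Ms4a1, Nkg7, Cd3d or Cd8a at 0 in some groups. Sums of other cell types moved with CGRP. The 6 pericyte and smooth muscle markers, none at 0, were lower at 4 h (29.6 to 63.7 against 67.9 to 131 CPM). At 8 h the 6 endothelial markers were lower (77.9 to 105 against 109 to 129 CPM), with Cldn5 at 0 after CGRP, and the 8 myofibre markers, none at 0, overlapped slightly (108 to 157 against 156 to 251 CPM). Their part in the results below was not tested. Some libraries stood apart: 4 had the most genes detected (PBS 4 h replicate 4, PBS 8 h replicates 1 and 4 and CGRP 4 h replicate 3), and PBS 8 h replicates 1, 2 and 3 had a high share of reads of the gene model Gm10800 (1.77% to 2.45%, against 0.536% to 1.01% elsewhere). Erythroid markers summed to 44.2 to 47.6 CPM in PBS 4 h replicate 4, CGRP 4 h replicate 3 and CGRP 8 h replicate 4, and to 0.970 to 3.04 elsewhere. Counts of calls without these libraries are given beside the results.

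As examples with a motif match, chosen after the matches were seen, 4 promoters of genes that passed a test below are printed: those of Psmd14 and Psmd4 in the 19S particle, Psmb5 in the core and Psme1 among the activators. Each is the RefSeq window of 300 bases on GRCm38.p6, from 250 bases before the start site to 50 after it, on the strand of the gene, and 32 of the 38 genes had such a window. Capitals mark matches to any of 4 motifs on either strand: CCAAT, the box bound by NF-Y; TGACNNNGC, the core of the antioxidant response element to which Nfe2l1 binds with small Maf proteins; TGACGTCA, the cAMP response element; and a core of interferon-stimulated elements, a pair of GAAA with any 2 bases between them, added after values of these genes had been seen. The antioxidant and cAMP motifs both begin with TGAC and cannot match from the same base of a strand. Psmd14 lies at chr2:61711694-61800376 on the plus strand, Psmd4 at chr3:95032694-95042614 on the minus strand, Psmb5 at chr14:54614119-54618022 on the minus strand and Psme1 at chr14:55578123-55581529 on the plus strand (GENCODE M21, GRCm38). The RefSeq start sites of Psmb5 and Psme1 lie inside these GENCODE models, and the window of Psme1 lies wholly inside its model.
Psmd14, chr2:61711444-61711743, plus strand: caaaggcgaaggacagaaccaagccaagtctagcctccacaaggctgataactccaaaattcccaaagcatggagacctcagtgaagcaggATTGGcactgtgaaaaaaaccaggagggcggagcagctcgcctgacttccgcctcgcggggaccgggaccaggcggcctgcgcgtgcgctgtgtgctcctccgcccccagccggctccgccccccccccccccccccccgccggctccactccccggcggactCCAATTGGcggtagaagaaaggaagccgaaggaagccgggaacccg
Psmd4, chr3:95042565-95042864, minus strand: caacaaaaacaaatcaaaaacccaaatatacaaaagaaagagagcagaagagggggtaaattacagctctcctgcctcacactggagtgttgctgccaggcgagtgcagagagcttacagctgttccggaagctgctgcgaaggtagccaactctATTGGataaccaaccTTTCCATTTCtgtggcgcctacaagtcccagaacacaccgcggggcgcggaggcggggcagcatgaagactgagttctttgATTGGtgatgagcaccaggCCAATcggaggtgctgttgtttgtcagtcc
Psmb5, chr14:54617946-54618245, minus strand: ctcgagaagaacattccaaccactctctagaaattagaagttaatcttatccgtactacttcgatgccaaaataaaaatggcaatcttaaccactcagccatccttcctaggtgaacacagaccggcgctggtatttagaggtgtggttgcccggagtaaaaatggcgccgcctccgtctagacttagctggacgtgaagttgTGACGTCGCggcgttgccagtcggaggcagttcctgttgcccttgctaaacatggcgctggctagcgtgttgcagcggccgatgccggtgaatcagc
Psme1, chr14:55578244-55578543, plus strand: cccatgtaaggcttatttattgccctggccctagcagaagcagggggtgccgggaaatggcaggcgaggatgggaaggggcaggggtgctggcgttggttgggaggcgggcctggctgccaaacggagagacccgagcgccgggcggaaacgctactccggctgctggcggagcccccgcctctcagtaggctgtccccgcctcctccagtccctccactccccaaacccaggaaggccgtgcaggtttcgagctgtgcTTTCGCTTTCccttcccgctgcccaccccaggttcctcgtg

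The windows of Psmd14 and Psmd4 each held 3 CCAAT matches, and in Psmd14 the last 2 overlap on opposite strands. Psmb5 held an antioxidant response core that begins at -47 from the start site. Psmd4 held an interferon-stimulated core that begins at -80, and Psme1 one at 10 bases after the start site. The windows of Psme2, the partner of Psme1, and of the 19S genes Psmc4 and Psmd1 held none of the 4 motifs. Across the 32 genes, 12 (37.5%) held CCAAT, against 41.1% of 27025 genes with a window. The antioxidant response core was in 6 (18.8%) against 14% of all genes, in 1 of the 17 genes that rose at 8 h and in 5 of the 15 that did not pass. None of the 32 held TGACGTCA, which 2.03% of all genes held, and 4 (12.5%) held the interferon-stimulated core, against 3.99%. Of these 4, 2 were among the 17 that rose at 8 h (Psmb3 and Psmd4) and 2 among the 15 that did not pass (Psmd9 and Psme1). These are counts of letters in a short window and say nothing of binding.

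The first question was how CGRP had changed these genes. At 8 h, core and 19S genes were higher: 19 of the 38 rose and none fell, where 5.00% of the 13949 genes tested rose and 3.67% fell. Those 19 were 8 of 14 core genes and 11 of 17 genes of the 19S particle, and none of the chaperones or activators. The rises were modest, from 1.19-fold (Psmc5) to 1.67-fold (Psmd14), and the median over all 38 genes was a log2 fold change of 0.29 (1.22-fold), against -0.02 over all genes tested. At 4 h, 5 of the 38 rose (Psmd14, Psmd3, Psmd1, Psmc2 and Psmd7, all of the 19S particle) and 2 fell (the PA28 genes Psme1 and Psme2), where 7.84% of all genes rose and 8.37% fell. Of these 5, 4 rose at both times: Psmd14, Psmd1, Psmc2 and Psmd7. Rose and fell stand for an adjusted p under 0.05 in edgeR's quasi-likelihood test over all genes, with no threshold on the fold, and errors of log2 fold changes are SE.

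The count at 4 h is near the background and the count at 8 h is above it. Among the 6569 genes whose mean lay within the range of these genes (18.1 to 279 CPM), 12.3% rose and 11.2% fell at 4 h, and 7.86% rose and 4.52% fell at 8 h. At 4 h, 30 of the 38 log2 fold changes were above 0, and at 8 h 36, against 49.8% and 47.6% of all genes. The 8 h count depended on which libraries were left out, and so did the count over all genes (698 with all libraries). Without CGRP 8 h replicate 3, 21 of the 38 rose, and 802 of all genes. It was 17 and 683 without CGRP 8 h replicate 2. Without CGRP 8 h replicate 1, 8 of the 38 rose, and 332 of all genes. The counts were 10 and 390 without CGRP 8 h replicate 4, 10 and 453 without PBS 8 h replicate 3, and 11 and 423 without PBS 8 h replicate 4. Without the 4 libraries with the most genes detected, 5 (Psmd14, Psmd1, Psmd4, Psmc4 and Psmb3) rose, and 104 of all genes. Without the 3 libraries with high erythroid markers, 10 rose, and 380 of all genes. These fits tested 13949 to 14274 genes. Without PBS 8 h replicates 1, 2 and 3, which leaves 1 PBS library, 35 of the 38 log2 fold changes were still above 0, with a median of 0.29. The 4 h count of 5, beside 1094 of all genes, was 10 without CGRP 4 h replicate 3 (1146 of all genes) and 3 without CGRP 4 h replicate 1 (926). It was 2 without CGRP 4 h replicate 2 (970), CGRP 4 h replicate 4 (696) or PBS 4 h replicate 1 (851). Without the 4 libraries with the most genes detected, and likewise without the 3 with high erythroid markers, 7 rose and 1 (Psme1) fell at 4 h. Over all genes 969 rose and 922 fell in the first of these fits, and 1078 and 945 in the second. With upper-quartile in place of TMM scaling, 3 of the 38 rose and 2 fell at 4 h, and 11 rose and 0 fell at 8 h, where the calls over all genes went from 698 higher and 512 lower to 531 and 649.

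**Figure D1:**
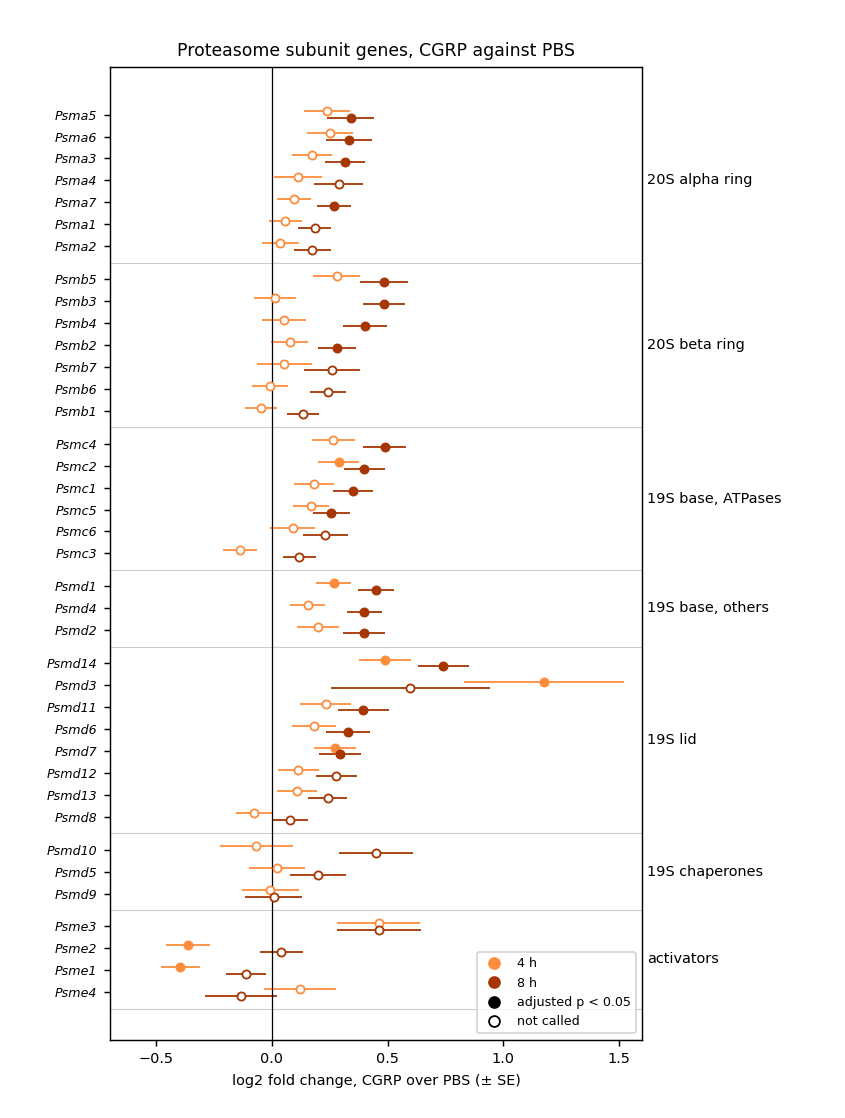
The x axis gives the log2 fold change between CGRP and PBS, with the times apart, for each of the 38 genes, grouped by class of subunit, with bars of 1 SE. Filled points are genes that passed the test: 5 above and 2 below 0 at 4 h, and 19 above 0 at 8 h.

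In the lid, which removes ubiquitin chains from the substrate, Psmd14 changed most clearly. Psmd14 is the metalloprotease that cuts the chain off, and its levels were 93.2, 95.0, 86.9 and 79.5 CPM in the 4 PBS libraries and 123, 113, 118 and 143 after CGRP at 4 h. At 8 h they were 76.5, 73.8, 72.6 and 71.3 CPM after PBS and 145, 103, 103 and 141 after CGRP. The groups did not overlap at either time, and CGRP 8 h replicates 1 and 4 stood above replicates 2 and 3. The log2 fold changes were 0.49 ± 0.11 at 4 h (edgeR, adjusted p = 0.00386) and 0.74 ± 0.11 at 8 h (edgeR, adjusted p = 3.23e-04). The mean after CGRP was 124 ± 13.3 CPM (SD, n = 4) at 4 h and 123 ± 23.2 at 8 h, while after PBS it was 88.6 ± 6.99 and 73.6 ± 2.18.

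Of the other lid genes, Psmd7, the partner of Psmd14 in the deubiquitinating dimer, rose at both times (0.27 ± 0.09 and 0.30 ± 0.09). Both calls were near the threshold (edgeR, adjusted p = 0.0413 and 0.0439) and were made in 9 and 5 of 19 alternatives. The scaffold genes Psmd11 (0.39 ± 0.11) and Psmd6 (0.33 ± 0.10) rose at 8 h, and at 4 h their log2 fold changes were 0.23 ± 0.11 and 0.18 ± 0.09 (edgeR, adjusted p = 0.161 and 0.216). Psmd12, Psmd13 and Psmd8 passed at neither time, with values of 0.28, 0.24 and 0.08 at 8 h. The lid thus had 3 of 8 genes higher at 4 h, where 7.84% of all genes rose. These were Psmd14, Psmd7 and Psmd3, whose libraries disagree as described below, and only the call of Psmd14 was made in every alternative. At 8 h it had 4 of 8 higher, where 5.00% of all genes rose, and all 8 values were above 0.

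Psmd3, another scaffold subunit of the lid, is described here because its libraries disagree, and its values per library were chosen after they had been seen. In the PBS libraries at 4 h it had 42.7, 26.5, 95.4 and 122 CPM. After CGRP at 4 h it had 149.7, 171, 143 and 185 CPM. At 8 h the values were 109, 108, 108 and 100.4 CPM after PBS and 190.0, 154, 149 and 151 after CGRP. CGRP lay above PBS at both times, but PBS 4 h replicates 1 and 2 lay far below all other libraries. Over those 2 libraries against the other 14, the log2 ratio of Psmd3 was -1.98, the 8th lowest of 3402 genes that averaged 50 CPM or more, whose median was 0.01, and the next lowest proteasome gene was Psmc2 at -0.21. Psmd3 rose at 4 h (log2 fold change 1.18 ± 0.35, edgeR, adjusted p = 0.0371), and without these 2 libraries the value was 0.58 (adjusted p = 0.00830). The 2 libraries were picked for their low Psmd3, so the low rank of Psmd3 above partly follows from that choice. The second p likewise follows a choice made on the values it tests and is no support for the rise. At 8 h the value of 0.60 ± 0.34 did not pass in the fit over all 16 libraries (adjusted p = 0.341). In a fit of the 8 h libraries alone, which leaves out the spread at 4 h, it was 0.60 with an adjusted p of 0.00103, while the 4 h libraries alone gave 1.18 with an adjusted p of 0.180. The 4 h call of Psmd3 was made in 13 of 19 alternatives. Without PBS 4 h replicates 1 and 2 the 4 h counts over the 38 genes were 2 higher and 1 lower, and over all genes 459 and 575.

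The base of the 19S particle had 7 of 9 genes higher at 8 h and 2 of 9 at 4 h. Over all genes 5.00% rose at 8 h and 7.84% at 4 h. All 3 non-ATPase subunits rose at 8 h. Psmd1, a large scaffold of the base, had 192, 193, 187 and 198 CPM after PBS and 234, 257, 201 and 234 after CGRP at 4 h. Its 8 h values were 164, 174, 180.2 and 172 CPM after PBS and 253, 229, 227 and 233 after CGRP. The groups were apart at both times, with log2 fold changes of 0.27 ± 0.08 (edgeR, adjusted p = 0.0200) and 0.45 ± 0.08 (edgeR, adjusted p = 9.77e-04). Psmd4, a receptor for ubiquitin chains, had 127, 138, 139.9 and 129.5 CPM after PBS and 159, 147, 139 and 149.7 after CGRP at 4 h, and the groups overlapped. The 8 h libraries had 114, 109, 112 and 126 CPM against 159, 151, 145 and 154, with no overlap (0.40 ± 0.08, edgeR, adjusted p = 0.00227). Psmd2, the other large scaffold and the gene with the highest mean of the 38 at 279 CPM, had 263, 274, 271 and 265 CPM after PBS and 326, 310.0, 272 and 322 after CGRP at 4 h, where CGRP replicate 3 lay within the PBS range. Its values at 8 h were 204, 254, 243 and 229.8 CPM after PBS and 359.8, 307, 260.5 and 300.3 after CGRP, again with the groups apart (0.40 ± 0.09, edgeR, adjusted p = 0.00867).

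Of the 6 ATPases, which form the ring that unfolds the substrate, Psmc1, Psmc2, Psmc4 and Psmc5 rose at 8 h and Psmc2 alone passed at 4 h. Psmc4 had 122, 121, 124 and 129 CPM after PBS and 165, 158, 128 and 144 after CGRP at 4 h, where CGRP replicate 3 lay within the PBS range (0.27 ± 0.09, edgeR, adjusted p = 0.0521). By 8 h the levels were 111, 95.8, 99.8 and 97.5 CPM after PBS and 159, 124, 134 and 152 after CGRP, with no overlap (0.49 ± 0.09, edgeR, adjusted p = 0.00241). Psmc2 had 98.9, 111, 109.7 and 106 CPM after PBS and 139, 131, 113 and 137 after CGRP at 4 h, and 94.7, 108, 114 and 98.8 against 150.3, 124, 135 and 138 at 8 h. All CGRP libraries of Psmc2 were above all PBS libraries at both times, with log2 fold changes of 0.29 ± 0.09 and 0.40 ± 0.09 (edgeR, adjusted p = 0.0267 and 0.00692). Psmc1 rose at 8 h from 73.4, 70.6, 80.4 and 79.5 CPM to 104, 94.3, 98.2 and 91.0 (0.35 ± 0.09, edgeR, adjusted p = 0.0133). Psmc5 had 0.26 ± 0.08 at 8 h (edgeR, adjusted p = 0.0459), a call made in 4 of 19 alternatives. Psmc3 and Psmc6, at 0.12 ± 0.07 and 0.23 ± 0.10, did not pass (edgeR, adjusted p = 0.355 and 0.153).

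In the 20S core no gene passed the test at 4 h, where the 14 genes had a median log2 fold change of 0.07 and 3 had an unadjusted p under 0.05, against 28.9% of all genes. At 8 h 8 of the 14 rose, where 5.00% of all genes did, all 14 values were above 0, and the median was 0.28. The alpha ring, which gates the barrel and docks the 19S particle, had 4 of 7 genes higher at 8 h: Psma3, Psma5, Psma6 and Psma7, at 0.27 to 0.34. Psma7 had 168, 173, 161 and 164 CPM after PBS and 224, 197, 182 and 199.9 after CGRP (0.27 ± 0.07, edgeR, adjusted p = 0.0241). Psma3 had 122, 136, 126 and 128 CPM after PBS and 174, 148, 146 and 169.7 after CGRP (0.32 ± 0.09, edgeR, adjusted p = 0.0268). Neither gene's groups overlapped. Psma1, Psma2 and Psma4 had values of 0.18 to 0.29 and did not pass.

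The beta ring carries the proteolytic sites, in Psmb5, Psmb6 and Psmb7. Psmb5, the chymotrypsin-like subunit, had 75.7, 77.5, 80.6 and 72.3 CPM after PBS and 97.9, 93.2, 81.0 and 99.1 after CGRP at 4 h. The groups were narrowly apart (0.28 ± 0.10), and the test did not pass (edgeR, adjusted p = 0.0649). The 8 h levels were 58.4, 72.2, 65.5 and 64.8 CPM after PBS and 109, 79.0, 92.8 and 83.3 after CGRP, and it rose (0.48 ± 0.10, edgeR, adjusted p = 0.00528). Psmb6, the caspase-like subunit, had 184, 207, 194 and 204 CPM after PBS and 207, 206, 177 and 194 after CGRP at 4 h. At 8 h it had 183, 188, 196 and 197 CPM after PBS and 243, 217, 209.9 and 233 after CGRP. The groups overlapped at 4 h and were apart at 8 h, where the value of 0.24 ± 0.08 just missed the threshold (edgeR, adjusted p = 0.0512). Psmb7, the trypsin-like subunit, had 39.2, 40.0, 40.7 and 38.7 CPM after PBS and 47.0, 39.9, 37.7 and 39.9 after CGRP at 4 h, and 39.3, 39.7, 36.9 and 33.7 against 52.3, 36.2, 40.1 and 50.9 at 8 h. Its groups overlapped at both times, with CGRP 8 h replicates 1 and 4 high (0.26 ± 0.12, edgeR, adjusted p = 0.194).

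Among the beta subunits without a proteolytic site, Psmb3 had the clearest rise. It had 60.1, 63.8, 60.0 and 54.9 CPM after PBS and 58.1, 65.2, 54.8 and 62.9 after CGRP at 4 h, so the groups lay on top of each other (0.01 ± 0.09). At 8 h it had 56.2, 51.5, 53.9 and 50.3 CPM after PBS and 79.5, 75.2, 71.3 and 70.3 after CGRP, and the groups were well apart (0.48 ± 0.09, edgeR, adjusted p = 0.00205). Psmb4 rose at 8 h from 118, 116, 121 and 116 CPM to 177, 146, 133 and 168 (0.40 ± 0.10, edgeR, adjusted p = 0.0112). Psmb2 rose at 8 h (0.28 ± 0.08), and Psmb1 had 0.13 ± 0.07 and did not pass (edgeR, adjusted p = 0.257).

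**Figure D2:**
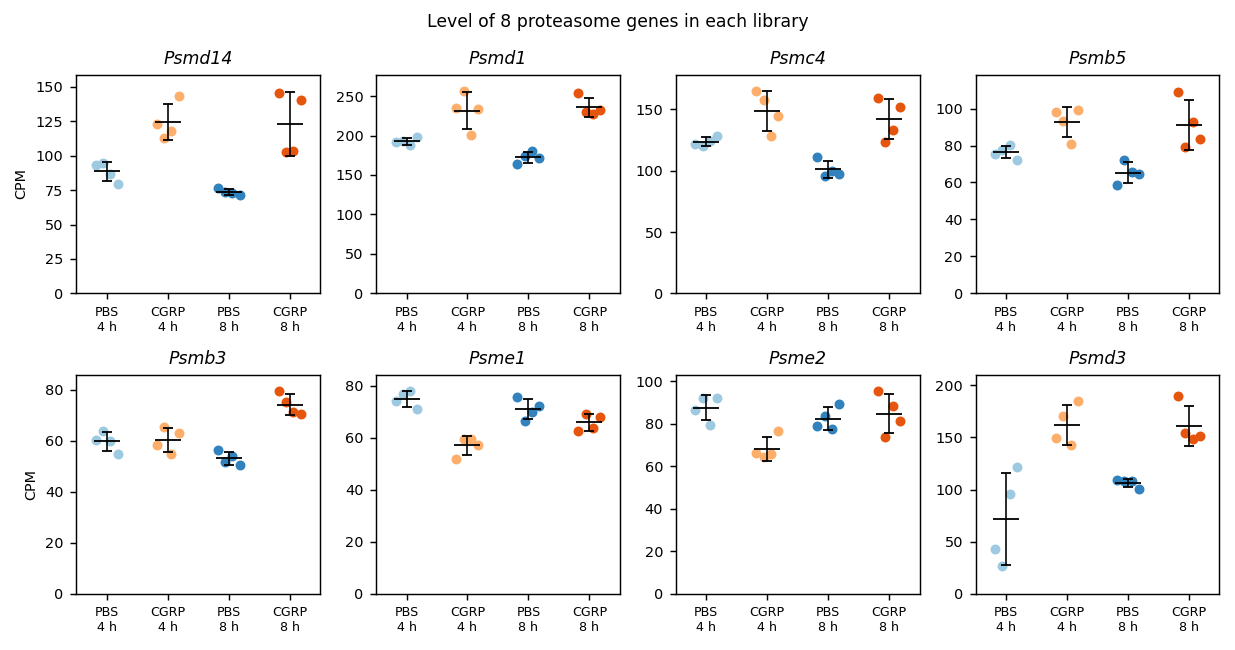
The y axis of each panel gives CPM from 0, each point is 1 library in the order of replicates 1 to 4, and lines and bars are the mean and SD of 4 libraries. Psmd14 and Psmd1 are apart between PBS and CGRP at both times, Psmb3 at 8 h and not at 4 h, Psme1 and Psme2 are lower after CGRP at 4 h, and Psmd3 has 2 low PBS libraries at 4 h.

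Of the 4 activators, 2 fell at 4 h, where 8.37% of all genes fell, and none passed at 8 h. Psme1, the alpha subunit of PA28, had 74.2, 76.7, 78.1 and 70.9 CPM after PBS and 51.8, 59.6, 59.6 and 57.2 after CGRP at 4 h, with all CGRP libraries below all PBS libraries. It fell to 0.761 of the PBS level (-0.39 ± 0.08, edgeR, adjusted p = 0.00262). At 8 h it had 75.8, 66.6, 70.0 and 72.2 CPM after PBS and 62.6, 69.2, 63.8 and 67.9 after CGRP, and the groups overlapped (-0.11 ± 0.08, edgeR, adjusted p = 0.477). Psme2, the beta subunit of PA28, had 86.5, 92.0, 79.4 and 92.0 CPM after PBS and 66.3, 64.1, 65.5 and 76.6 after CGRP at 4 h, again without overlap (-0.36 ± 0.09, edgeR, adjusted p = 0.0108). At 8 h it had 79.0, 83.6, 77.5 and 89.2 CPM after PBS and 95.4, 73.9, 88.1 and 81.4 after CGRP, overlapping (0.04 ± 0.09, edgeR, adjusted p = 0.857). The difference between the effects at 8 h and 4 h did not pass for either gene (Psme1 0.28 ± 0.12, edgeR, adjusted p = 0.268; Psme2 0.40 ± 0.13, edgeR, adjusted p = 0.145).

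Psme3, the gamma form of PA28 found in the nucleus, was the member with the lowest mean at 18.1 CPM. It had 15.6 ± 3.28 CPM (SD, n = 4) after PBS and 21.6 ± 6.11 after CGRP at 4 h, and 14.9 ± 1.49 against 20.5 ± 1.80 at 8 h. Its log2 fold change was 0.46 ± 0.18 at each time and passed at neither (edgeR, adjusted p = 0.0841 and 0.121). At 8 h its CGRP libraries, at 17.9 to 21.9 CPM, were all above the PBS libraries, at 13.2 to 16.7. Psme4, which encodes PA200, had 26.1 ± 4.76 and 28.4 ± 2.58 CPM at 4 h and 27.8 ± 5.19 and 25.4 ± 3.46 at 8 h, a difference within the spread of the libraries. The chaperones of 19S assembly, Psmd5, Psmd9 and Psmd10, passed at neither time, with a median log2 fold change of -0.01 at 4 h and 0.20 at 8 h. The highest of them was Psmd10 at 8 h (0.45 ± 0.16, edgeR, adjusted p = 0.0809).

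The immunoproteasome genes, which replace the proteolytic subunits of the core in interferon-treated and immune cells, had been left out by the choice of symbols and are set beside the activators here. Psmb8 had 58.9 ± 7.65 CPM (SD, n = 4) after PBS and 35.6 ± 3.74 after CGRP at 4 h. At 8 h the means were 52.9 ± 6.08 and 52.5 ± 1.74 CPM. Psmb10 went from 53.4 ± 8.94 to 30.1 ± 4.31 CPM at 4 h, and Psmb9 from 16.4 ± 2.09 to 8.02 ± 2.39. All 3 fell at 4 h, where 8.37% of all genes fell. Their standard counterparts Psmb5, Psmb6 and Psmb7 had values of 0.28, -0.01 and 0.05 there. None of the 3 immunoproteasome genes passed at 8 h, and the effect at 8 h was above that at 4 h for Psmb8 (0.72 ± 0.16, edgeR, adjusted p = 0.0263) and Psmb10 (0.84 ± 0.19, edgeR, adjusted p = 0.0280).

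Summed over a class, the 17 genes of the 19S particle had 2292 ± 74.0 CPM (SD, n = 4) after PBS and 2655 ± 183 after CGRP at 4 h, and 2127 ± 13.2 and 2702 ± 206 at 8 h. At 4 h the sums of the libraries were narrowly apart, at 2185 to 2354 CPM after PBS and 2393 to 2818 after CGRP. They include Psmd3, with its low PBS libraries at 4 h and means of 71.5 CPM after PBS and 162 after CGRP there. Sums without Psmd3 were not made. The 14 core genes had 1856 ± 76.5 and 1963 ± 62.5 CPM at 4 h, where the libraries overlapped, and 1733 ± 10.4 and 2090 ± 177 at 8 h, where they did not. The 4 activators summed to 204 ± 3.85 and 175 ± 13.2 CPM at 4 h, without overlap, and to 196 ± 2.53 and 196 ± 5.18 at 8 h. In several libraries the deviation from the group was shared by most genes. CGRP 8 h replicate 1 was above its group's mean log2 CPM in 36 of the 38 genes, CGRP 8 h replicates 2 and 3 in 6 and 7, and CGRP 4 h replicates 3 and 4 in 3 and 32. Their median deviations were, in this order, 0.14, -0.06, -0.08, -0.13 and 0.07. PBS 4 h replicates 1 and 2 were above the mean in 8 and 31 genes, with medians of -0.04 and 0.04. In the other libraries the medians were -0.01 to 0.05. Such deviations were not compared with those of all genes.

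**Figure D3:**
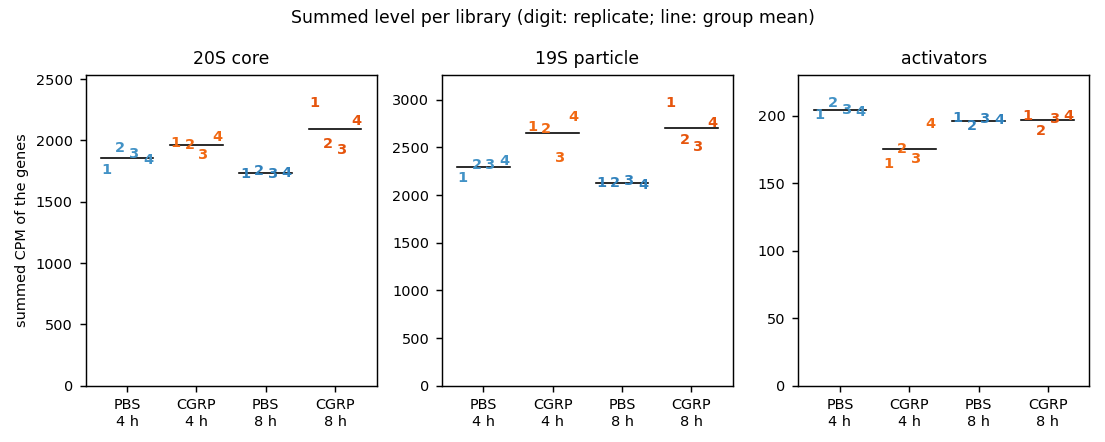
The y axis gives CPM summed over the genes of the 20S core, the 19S particle and the activators, starting at 0. Each digit is 1 library and gives its replicate, and lines are the means of 4 libraries. At 8 h the CGRP libraries of core and 19S particle lie above all PBS libraries, and at 4 h the activators lie below.

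Most values of the 8 h comparison lay high among those of all genes. There, 29 of the 38 log2 fold changes were above the upper quartile of all genes tested (0.19) and 0 were below the lower quartile (-0.25). At 4 h 9 were above the upper quartile (0.24) and 2 below the lower (-0.26). The 4 CGRP libraries were all above the 4 PBS libraries in 24 genes at 8 h, where 8.08% of all genes had that pattern, and in 8 genes at 4 h, against 8.95%. They were all below in 0 genes at 8 h, against 6.75% of all genes, and in 3 at 4 h, against 9.90%.

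**Figure D4:**
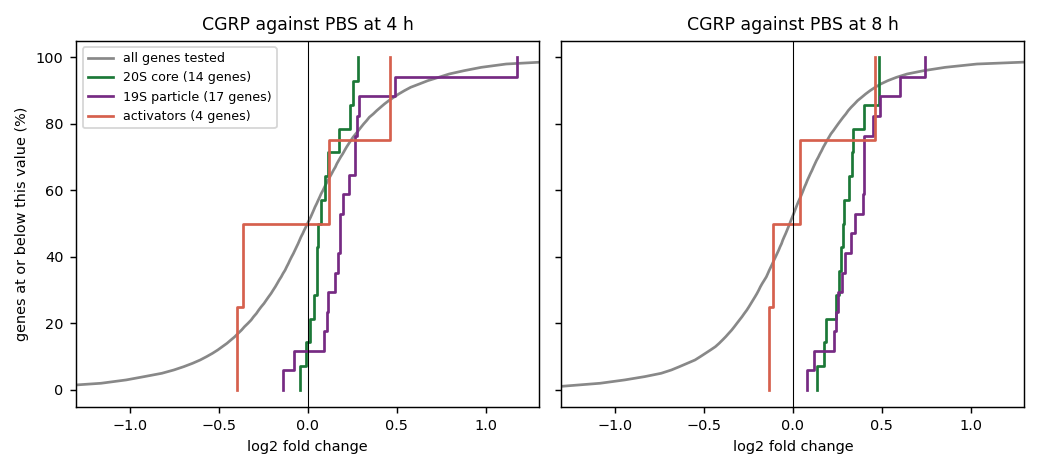
The x axis gives the log2 fold change of CGRP against PBS, drawn from -1.3 to 1.3, and the y axis the percentage of genes at or below it, for all genes tested and for the 14 core genes, 17 genes of the 19S particle and 4 activators. At 8 h the curves of core and 19S particle lie to the right of the curve of all genes over most of its range, and at 4 h those of the core and the 19S particle do so at values below 0.

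The effects at 8 h and at 4 h were compared directly, since a gene that passes at one time and not at the other need not differ between them. No proteasome gene passed this test in edgeR, where 0.695% of all genes had a higher and 0.423% a lower effect at 8 h. With an unadjusted p under 0.05 there were 8, where 14.3% of all genes had one: Psmb3, Psmb4, Psmb6, Psmc3, Psmd10, Psmd4, Psme1 and Psme2, all with the higher value at 8 h. Psmb3 was nearest (0.47 ± 0.13, edgeR, adjusted p = 0.0734), and it was the 1 gene that passed in DESeq2 (0.47, adjusted p = 0.0213). For Psmd14 the difference between its rises was 0.25 ± 0.16 (edgeR, adjusted p = 0.497).

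Time alone was examined within each injection, in comparisons that share libraries with those above. After PBS, no proteasome gene passed from 4 h to 8 h (0.265% of all genes rose and 0.251% fell), though 36 of the 38 values were below 0, with a median of -0.09, where 49.4% of all genes were above 0. An unadjusted p under 0.05 was found for 13.03% of all genes and for 6 of the 38 (Psmb2, Psmb5, Psmc4, Psmd14, Psmd2 and Psmd4, at -0.20 to -0.29). After CGRP, 2 genes rose from 4 h to 8 h, Psmb3 (0.30 ± 0.09, edgeR, adjusted p = 0.0422) and Psme2 (0.32 ± 0.09, edgeR, adjusted p = 0.0437), and none fell, where 4.20% of all genes rose and 3.05% fell. The median over the 38 genes was 0.06, and it was 0.0085 without CGRP 4 h replicate 3, 0.00734 without CGRP 8 h replicate 1 and -0.00756 without the 3 libraries with high erythroid markers. Without CGRP 4 h or 8 h libraries, left out singly, at most 1 of these 2 calls was made.

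Genes that act with the proteasome were read from lists chosen with earlier results of these data known. Of 23 assembly factors and proteasome-bound proteins, 5 rose and 0 fell at 4 h (7.84% and 8.37% of all genes): the core assembly chaperones Psmg1 (0.39 ± 0.12) and Psmg2 (0.47 ± 0.11), the shuttle factors Ubqln1 (0.75 ± 0.17) and Ubqln4 (0.60 ± 0.15), and the deubiquitinase Uchl5 (0.39 ± 0.13). At 8 h 2 rose and 0 fell, near the background of 5.00% and 3.67%: the ubiquitin receptor Adrm1 (0.44 ± 0.10) and the deubiquitinase Usp14 (0.53 ± 0.13). Pomp, which matures the core, had 0.01 ± 0.09 and 0.19 ± 0.09 and did not pass. The medians of the list were 0.23 at 4 h and 0.17 at 8 h.

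The list for the route that controls proteasome genes through Nfe2l1 also held related genes, such as Sqstm1. Its share of calls was near that of all genes at 4 h, where 7.84% rose and 8.37% fell. Of its 15 genes, Mafk, a small Maf partner (0.42 ± 0.11), rose and Sqstm1, an autophagy receptor for ubiquitin chains (-0.39 ± 0.08), fell at 4 h. At 8 h Vcp, the ATPase that extracts ubiquitinated proteins (0.27 ± 0.08), and its cofactor Ufd1 (0.36 ± 0.10) rose, and 0 fell, where 5.00% of all genes rose and 3.67% fell. Nfe2l1 itself had -0.03 ± 0.08 at 4 h and 0.08 ± 0.08 at 8 h and did not pass (edgeR, adjusted p = 0.861 and 0.646). These RNA levels do not show whether the route was active, which was not tested. Of 6 ubiquitin genes and activating enzymes, 0 passed at 4 h, and at 8 h Uba1, the main ubiquitin-activating enzyme, rose (0.25 ± 0.07). The polyubiquitin gene Ubb, at -0.07 ± 0.08 and 0.01 ± 0.08, did not pass.

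The genes differed more in level between each other than between groups. Per kilobase of exon (GENCODE M21, all exons of a gene joined), the mean over all libraries was 36.9 to 92.9 CPM per kb in the alpha ring (Psma3 to Psma6), 11.9 to 125 in the beta ring (Psmb7 to Psmb2), 23.7 to 126 in the ATPase ring (Psmc2 to Psmc5), 28.6 to 69.1 in the rest of the base (Psmd1 to Psmd2) and 16.7 to 65.4 in the lid (Psmd11 to Psmd7). It was 7.59 to 13.5 CPM per kb in the chaperones and 3.21 to 45.7 in the activators (Psme4 to Psme2). The exon length of the joined models sets these values, and which isoforms were read was not analysed here. Proteasome genes have processed pseudogenes, and reads of 25 bases may fit both. A median of 5.83% of the 25-base words of a gene occurred in another gene of GENCODE M21, 23 of the 38 were under 10%, and 2 were over 50%: Psmb5 (76.7%, most with Gm3375) and Psma5 (64.5%, most with Gm8394). Psmc1 shared 39.3%, Psmd2 37.6% and Psme2 35.7%, the last mostly with Psme2b. The sources used here do not say how the counting treated such reads, so values of genes with large shares are uncertain to that extent.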

How the data were processed

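Per the labels' protocols, cDNA of sorted cells, made with an oligo(dT) primer and amplified, was turned into Nextera XT libraries and read as pairs of 25 bases. The authors deposited raw read counts for each gene symbol, made with STAR 2.5.4 and featureCounts on mm10, per the submitters' processing notes. Neither the annotation nor the settings for strand and for reads with several matches are stated there.

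The counts of all 16 libraries were fitted with edgeR 4.0.16 in R 4.3.3: filterByExpr left 13949 genes, scaling was TMM, and a robust quasi-likelihood model had 1 mean per group and 12 residual degrees of freedom. Two-sided p-values received the Benjamini-Hochberg adjustment across these genes, and an adjusted p under 0.05 made a call. Values are TMM-scaled CPM, and log2 CPM used a prior count of 0.5. The biological coefficient of variation was 17.4%. Within groups, counts of all 24 pairs of libraries differed beyond sampling noise (chi-square 6.52 to 22.7 times its degrees of freedom). Same-numbered replicates did not deviate together, so the numbers were not used as pairs.

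The genes, classes, lists, tests and rules were chosen with earlier results of these data known. Values per library are given for the 14 called genes with the smallest adjusted p at 4 h or 8 h and for Psmb5, Psmb6, Psmb7 and Psmd14 by rule, and for Psmd3 outside it. The values of 1 gene of the lists are not reported here. Other scalings, filters and tools (DESeq2 1.42.0, limma-voom 3.58.1), a replicate block, and fits without single or several libraries were alternatives. Promoter windows and motif shares come from RefSeq on GRCm38.p6, and exon lengths and shared words of 25 bases from GENCODE M21.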

Additional observations from a re-analysis of the deposited data

Results flagged for a closer look

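Among 152 groups of 4 libraries (38 genes in 4 groups), 2 held a library far from the other 3 by Dixon's criterion, which chance meets in about 1 in 20 groups. Both were of Psmd3. In PBS 8 h replicate 4 it had 100.4 CPM, against 108 to 109 in the other 3, and in CGRP 8 h replicate 1 it had 190.0 CPM, against 149 to 154. CGRP 8 h replicate 1 was also above its group's mean in 36 of the 38 genes. The low PBS libraries of Psmd3 at 4 h are a pair and do not meet this criterion.

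For 2 immunoproteasome genes the effect of CGRP at 8 h differed from that at 4 h by the test of the difference: Psmb8 (0.72 on the log2 scale) and Psmb10 (0.84), both lower after CGRP at 4 h and near the PBS level at 8 h.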

How the results depend on the processing

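At 8 h, where 19 genes rose, the alternatives called 20 (relative log expression scaling), 11 (upper-quartile scaling), 22 (DESeq2), 15 (limma-voom), 15 (no filter), 20 (at least 10 reads in 4 or more libraries) and 14 (only the 8 h groups), with 0 falling in any of them. Over all genes, in the same order, 702, 531, 882, 561, 816, 708 and 675 rose, against 698. Those that fell were 499, 649, 665, 490, 540, 487 and 548, against 512. The genes tested were 13949, but 40070 with no filter and 14236 with at least 10 reads. Leaving out 1 library gave 8 to 21 of the 38, and 332 to 802 of all genes. The median of the 38 genes was 0.25 to 0.36 in every one of these settings and those below. At 4 h the 5 higher calls became 3 with upper-quartile scaling, 1 with no filter and 2 with only the 4 h groups, and 2 to 10 without 1 library, while the 2 lower calls were made each time. Over all genes, 913 rose and 1381 fell with upper-quartile scaling, 1112 and 1094 with no filter, and 900 and 971 with only the 4 h groups. The replicate block, whose numbers do not pair the libraries (correlations of deviations -0.03 to 0.04), called 5 higher and 2 lower at 4 h and 17 higher at 8 h, and 0 of the 2 genes that rose from 4 h to 8 h after CGRP. Over all genes, this block called 1034 higher and 1133 lower at 4 h, 620 higher at 8 h and 538 higher over time after CGRP. The 2 calls over time after CGRP became 0 with no filter, with only the CGRP groups, and without the 4 libraries with the most genes detected, and 0 to 1 without 1 library. Over all genes, 658, 411, 499 and 385 to 547 rose there, in the same order. DESeq2 called 1 gene of the 38, Psmb3, in the test of the difference, where it called 248 of all genes higher and 179 lower. Of the calls, 2 of 7 at 4 h (Psmd14 and Psme1), 0 of 19 at 8 h and 0 of 2 over time were made in every alternative, and Psmd14, Psmd1, Psmb3, Psmc4 and Psmd4 at 8 h in 18 of 19. The 8 h calls made least often were those of Psmc5 (4 of 19), Psma6 (5) and Psmd7 (5).

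Fits without several libraries were added after seeing the data. Without PBS 4 h replicates 1 and 2, 2 genes rose and 1 fell at 4 h. Without the 4 libraries with the most genes detected, 1 fell at 4 h and 5 rose at 8 h. Without PBS 8 h replicates 1, 2 and 3, 0 passed at 8 h; there the lone PBS library is assumed to vary like the other groups. Without the 3 libraries with the highest erythroid markers, 1 fell at 4 h, 10 rose at 8 h and 0 of the 2 calls over time after CGRP was made. Directions turned in the following values. For medians the change was at least 0.063, the SD over libraries of the median deviation of the 38 genes. For single genes it was at least the SE of the gene. No single-gene value among them passed in the fit over all libraries. The median of the chaperones was -0.0429 to 0.0854 at 4 h without 1 library, highest without CGRP 4 h replicate 3, and -0.00593 for the difference without the 4 libraries, where Psmd9 at 4 h was 0.13. Without PBS 8 h replicates 1, 2 and 3, the 8 h values were 0.11 for the median of the activators, -0.22 for Psmd9, -0.0746 for Psme2 and 0.29 for Psme4, and the median of the chaperones over time after PBS was 0.0427. Without the 3 libraries with high erythroid markers, the 4 h values were 0.0625 for the median of the chaperones, 0.0707 for Psmb6 and 0.146 for Psmd9, and over time after CGRP the medians were -0.00756 for all 38 genes and -0.033 for the 19S particle, which was also below 0 without CGRP 4 h replicate 3, without CGRP 8 h replicate 1 and without the 4 libraries. The cause was not tested.

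Over all genes, the calls at 4 h were 459 higher and 575 lower without PBS 4 h replicates 1 and 2, and 696 to 1146 and 785 to 1080 without 1 library. At 8 h they were 104 and 88 without the 4 libraries, 68 and 87 without the 3 PBS libraries, 380 and 291 without the 3 erythroid-high libraries, and 332 to 802 and 245 to 477 without 1 library. In the test of the difference they were 248 and 179 (DESeq2), 256 and 200 (no filter), 25 and 21, 33 and 31, and 27 and 25 (the 3 added fits in the order above), and 47 to 118 and 32 to 105 without 1 library. Over time after PBS they were 178 and 156 (DESeq2), 21 lower (limma-voom), 244 and 178 (no filter), 60 and 73 (PBS groups only), 7 and 14, 6 lower, 12 and 7, and 229 and 68 (the added fits), and 8 to 208 and 7 to 72 without 1 library. After CGRP, leaving out 1 library gave 385 to 547 and 281 to 406. Fewer libraries leave fewer degrees of freedom.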
